A study of Mus musculus with 32 samples.

Results

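Elastic fibres are the recoil-bearing part of the arterial wall, and in brain arteries they form the internal elastic lamina between the endothelium and the smooth muscle cells. Cells secrete soluble tropoelastin, which is gathered on a scaffold of fibrillin microfibrils with the help of fibulins and is then joined into an insoluble polymer by copper-dependent lysyl oxidases. The polymer is made mostly in early life and turns over slowly, so the mRNA level of its genes in an adult artery does not measure the amount of elastin in the wall.

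The genes examined are 10 of the 55357 in the count table: Eln (tropoelastin), Fbn1 (fibrillin-1), Emilin1, Mfap4, Fbln1, Fbln2, Fbln5, Efemp2 (fibulin-4), Lox and Loxl1. They were selected by symbol as the core and assembly genes of the elastic fibre, and they were chosen from these data because Eln was higher in TgNotch3R169C than in WT arteries. Measures of that contrast are therefore descriptions: no p-value of the 10 is given for it, and its intervals and counts of calls support nothing. All 10 passed the filter on low counts in every comparison.

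The study asked whether the arterial disease of CADASIL, a small vessel disease of the brain caused by NOTCH3 mutations, goes with lost, gained or altered NOTCH3 activity. Poly(A) RNA of dissected brain arteries was sequenced from 32 mice, 1 library per mouse and 8 mice in each of 4 groups. TgNotch3R169C mice, aged 12 months, carry rat Notch3 with the Arg169Cys mutation on a P1 phage artificial chromosome, in addition to their own mouse Notch3. Their controls were WT mice of the same age without the transgene. Notch3-/- mice, aged 3 months, lack functional Notch3, and their controls were Notch3+/+ mice of that age. The controls are described as age-matched littermates, none of the mice was treated, and the lines had been backcrossed to C57BL/6. The transgene lies on the X chromosome, males and females were used, and the labels do not give the sex of a mouse. The mutants differ in line and in age, so the 4 groups are not a crossed design of age and genotype.

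Libraries held 20289487 to 54481934 counts. Levels are given as CPM, counts relative to library size with TMM factors over all 32 libraries. Notch3, the targeted gene, was measured at 83.6 ± 12.0 CPM (SD, n = 8) in Notch3+/+ and 16.2 ± 1.82 CPM in Notch3-/- mice, and at 73.2 ± 8.19 CPM in WT and 182 ± 34.5 CPM in TgNotch3R169C mice, and in both pairs every mutant library lay on the side that its label gives. None of the 8 smooth muscle markers (Acta2, Myh11, Tagln, Cnn1, Smtn, Lmod1, Des and Myocd) had a group median of 0, and their summed level was 955 to 3713 CPM. Choroid plexus RNA was unevenly shared among libraries: the sum of 8 markers led by Ttr was above 1000 CPM in 4 of 8 WT, 2 of 8 TgNotch3R169C, 1 of 8 Notch3-/- and 0 of 8 Notch3+/+ libraries. For each comparison, the calls were also made without these libraries, a choice made after the data were seen.

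Tropoelastin transcripts stood among the abundant mRNAs of these arteries. Eln (ENSMUSG00000029675) gave 9044 to 44307 counts per library. Relative to the length of its longest basic transcript, its mean level was 569 TPM (counts per base of transcript, scaled to the same total in each library) in Notch3+/+, 476 TPM in Notch3-/-, 358 TPM in WT and 557 TPM in TgNotch3R169C arteries, which placed it at rank 131, 162, 233 and 129 among all genes. Eln made up 32.2%, 29.2%, 26.2% and 32.2% of the summed TPM of the 10 genes in the same order. Fbln1, at 366 to 421 TPM, was below Eln in 3 of the groups and slightly above it in WT mice (366 against 358 TPM). Fbln5 followed at 143 to 187 TPM, and the lowest was Fbn1 at 32.4 to 46.2 TPM. The order depends on the length used. With all exons of a gene joined, Eln was at 237 to 379 TPM and Fbln1 at 428 to 494 TPM, and Fbln2 (43.3 to 59.1 TPM) was lower than Fbn1 (44.6 to 63.8 TPM).

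A regulatory feature that the choice of the genes did not use is shown first, since it divides the 10. It was searched for after the fold changes were known, so the division is a description. The miR-29 family is known for repressing transcripts of elastin, fibrillin-1 and collagens through sites in their 3′ untranslated regions (UTRs). Its mature members share a seed (bases 2 to 8, in capitals), as printed from RefSeq in 5′ to 3′ direction.
mmu-miR-29a-3p: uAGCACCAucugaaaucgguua
mmu-miR-29b-3p: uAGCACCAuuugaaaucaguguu
mmu-miR-29c-3p: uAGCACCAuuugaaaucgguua

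The longest annotated 3′ UTR of each gene (GENCODE vM21) was searched on the transcript strand for TGGTGCT, the complement of the seed. Eln held 3 matches in 1188 bases, Lox 3 in 3160 bases and Fbn1 2 in 992 bases, and the other 7 genes held 0. In 2 of the Eln matches and 1 of the Fbn1 matches an A follows the match, which makes it an 8-base site. The sites of Eln and Fbn1 are shown with their flanks, with the match in capitals and the start counted from the first base of the UTR.
Eln, match 1 at base 38: cctcatcaacgtTGGTGCTactgct
Eln, match 2 at base 285: tccaagggaaatTGGTGCTacatgt
Eln, match 3 at base 298: ggtgctacatgtTGGTGCTtcttct
Fbn1, match 1 at base 406: ctgttgtctgttTGGTGCTagtaaa
Fbn1, match 2 at base 656: gagggtttgtaaTGGTGCTtattaa

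Matches 2 and 3 of Eln lie next to each other, so that the flanks printed for them overlap. The motif was in 15.3% of the 15298 tested genes with an annotated 3′ UTR, and 2.48% held 2 or more. Among 1402 UTRs within 10% of the length of that of Eln, 11.1% held a match and 0.214% held 3 or more. For Fbn1 and Lox the shares with as many matches at that length were 0.67% and 0.571%. A match is a string of letters and not a measured site. The miRNAs themselves are not captured in these libraries.

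**Figure D1:**
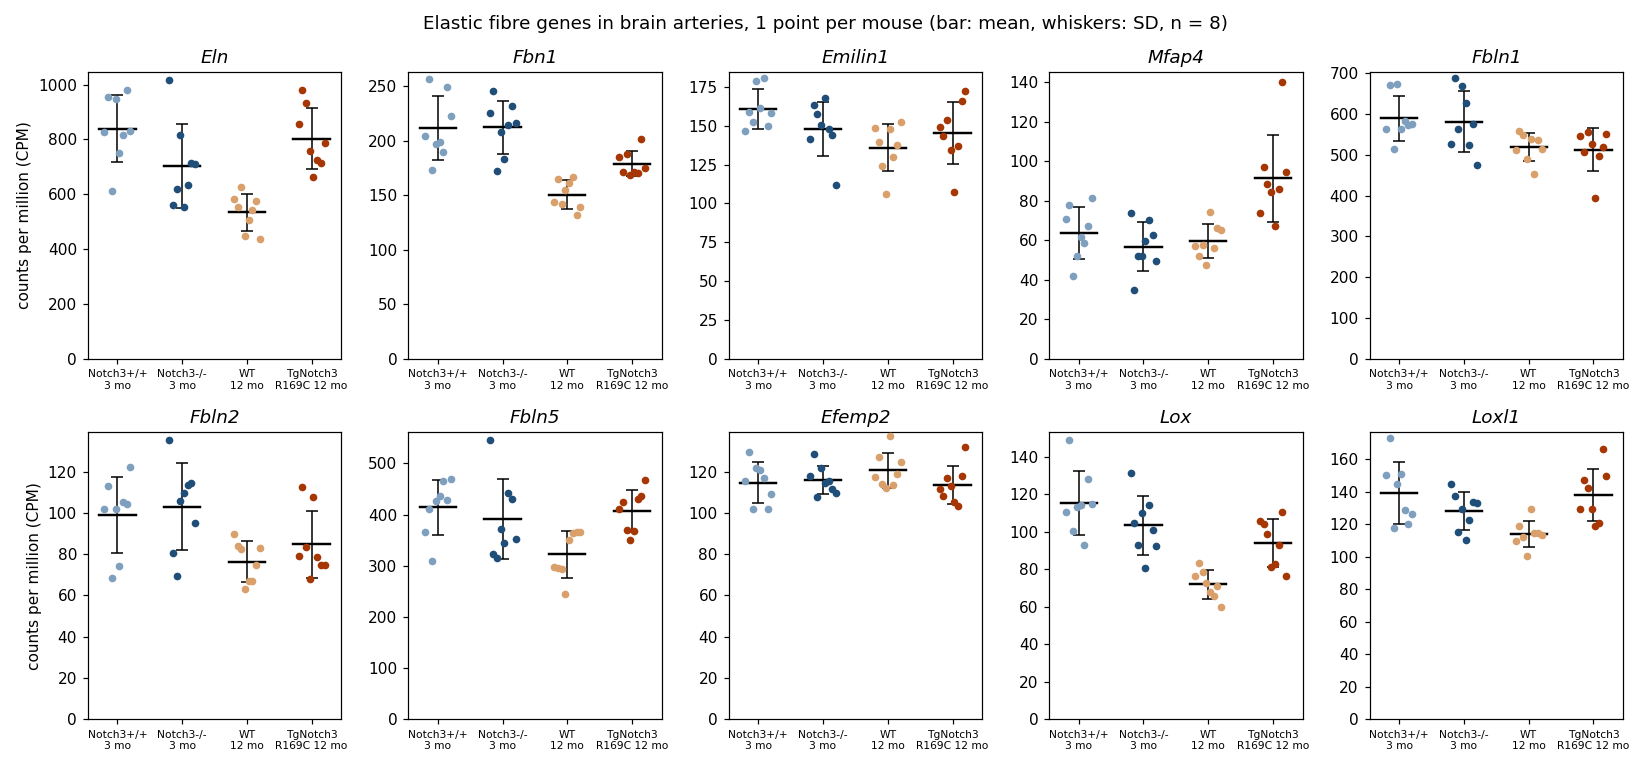
CPM of the 10 elastic fibre genes (y axis, starting at 0) in brain arteries of Notch3+/+ and Notch3-/- mice aged 3 months and of WT and TgNotch3R169C mice aged 12 months, with 1 point per mouse, a bar for the mean and whiskers for the SD (n = 8). For Eln, the 8 WT mice sit between 436 and 627 CPM, below all 8 TgNotch3R169C mice at 664 to 980 CPM.

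Eln was higher in TgNotch3R169C arteries than in those of WT mice of the same age, the observation that chose these genes. Its level was 436 CPM in the lowest, 549 CPM at the median and 627 CPM in the highest WT mouse. In TgNotch3R169C mice the lowest, median and highest values were 664, 772 and 980 CPM. All 8 transgenic mice were above all 8 controls, and the level was 50.2% higher (log2 fold change 0.59 ± 0.09 SE, 95% CI 0.39 to 0.79). The 3-month groups lay in the upper range as well, with 610, 828 and 980 CPM in Notch3+/+ and 555, 672 and 1017 CPM in Notch3-/- mice. In order of mean level, Notch3+/+ (839 ± 123 CPM), TgNotch3R169C (802 ± 111 CPM) and Notch3-/- mice (703 ± 154 CPM) did not differ from their neighbour by more than the larger SD, while WT mice aged 12 months (534 ± 66.2 CPM) did.

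Among the scaffold genes, Fbn1 (ENSMUSG00000027204), the backbone of the microfibril, also showed no overlap between the 12-month groups. WT mice were at 132, 149 and 167 CPM and TgNotch3R169C mice at 169, 173 and 202 CPM (lowest, median, highest), with a log2 fold change of 0.25 ± 0.05. The groups were separate for 2 of the 10 genes, Eln and Fbn1, and in the same direction for 0.13% of the 17731 genes tested. Mfap4 (ENSMUSG00000042436), a microfibril-associated glycoprotein that binds tropoelastin, had the largest log2 fold change of the 10, at 0.62 ± 0.13. Its values were 47.4, 57.4 and 74.5 CPM in WT and 67.0, 87.5 and 140 CPM in TgNotch3R169C mice, and 6 of 8 transgenic mice were above every control. The highest Mfap4 value belonged to 1 transgenic mouse, and without it the log2 fold change was 0.50. Emilin1 (ENSMUSG00000029163), a glycoprotein at the interface of elastin and microfibril, was at 106, 139 and 153 CPM in WT and 108, 146 and 172 CPM in TgNotch3R169C mice. Those groups overlapped over most of their range (log2 fold change 0.10 ± 0.09).

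The fibulins, which bring tropoelastin to the microfibril and to the cross-linking enzymes, did not move together. Fbln5 (ENSMUSG00000021186), which binds both tropoelastin and cell surface integrins, was at 245, 323 and 365 CPM in WT and 350, 418 and 468 CPM in TgNotch3R169C mice. The highest control was exceeded by 7 of the 8 transgenic mice, and the log2 fold change was 0.34 ± 0.08. Fbln2 (ENSMUSG00000064080) was at 63.0, 78.6 and 89.8 CPM in WT and 68.2, 78.8 and 113 CPM in TgNotch3R169C mice, so the medians were nearly equal (log2 fold change 0.15 ± 0.11). Fbln1 (ENSMUSG00000006369), a basement membrane fibulin that also lies in elastic fibres, had a log2 fold change of −0.02 ± 0.07, and its group means were 519 ± 34.5 CPM in WT and 513 ± 52.4 CPM in TgNotch3R169C mice. Efemp2 (ENSMUSG00000024909), which is required for the activation of Lox, was the most even of the 10 over the 4 groups, with group means of 114 to 121 CPM. Its log2 fold change here was −0.09 ± 0.05, with 7 of 8 transgenic mice below the WT mean and 4 below every control.

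Both cross-linking enzymes were higher in the transgenic mice by less than Eln. Lox (ENSMUSG00000024529), which oxidizes lysines of tropoelastin and collagen, was at 59.6, 72.1 and 83.1 CPM in WT and 76.5, 95.9 and 110 CPM in TgNotch3R169C mice. Every control was exceeded by 5 of the 8 transgenic mice (log2 fold change 0.39 ± 0.09). Loxl1 (ENSMUSG00000032334), the family member tied most closely to elastin upkeep in adult tissue, was at 100, 114 and 129 CPM in WT and 119, 136 and 166 CPM in TgNotch3R169C mice. Here 6 of 8 were above every control, and the log2 fold change was 0.27 ± 0.07.

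In this comparison 8 of the 10 genes had a positive estimate, and the median was 0.26 on the log2 scale beside −0.0074 over all genes tested. With edgeR, 1 of the 10 (Eln) was called at an adjusted p below 0.05, and 0.113% of all genes were. With DESeq2 the count was 6 (Eln, Fbn1, Fbln5, Lox, Loxl1 and Mfap4), beside 0.33% of all genes. Nothing is read from these counts, since the contrast chose the genes. The smooth muscle markers were lower in 8 of 8 cases with 0 called (median log2 fold change −0.23). Their summed level was 1145 to 1786 CPM in WT and 955 to 1483 CPM in TgNotch3R169C mice. With that list as a covariate, the log2 fold change of Eln was 0.72. Neuron and astrocyte markers were each higher in 8 of 8 cases with 0 called (medians 0.30 and 0.16). Their summed levels were 274 to 843 and 2316 to 3032 CPM in WT, and 412 to 1228 and 2617 to 3401 CPM in TgNotch3R169C mice. Of 8 arterial endothelium markers 6 were higher and 1 was called (Gja5; median 0.21), with sums of 374 to 525 CPM in WT and 439 to 538 CPM in TgNotch3R169C mice. The part of these cells in the values of the 10 genes was not tested. Without the 6 libraries of these groups that held choroid plexus RNA, Eln had a log2 fold change of 0.58 and 0 of the 10 were called, as also with Ttr as a covariate (0.54). In whole arteries, more RNA per cell and more cells of the kind that makes it cannot be told apart, in either direction.

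**Figure D2:**
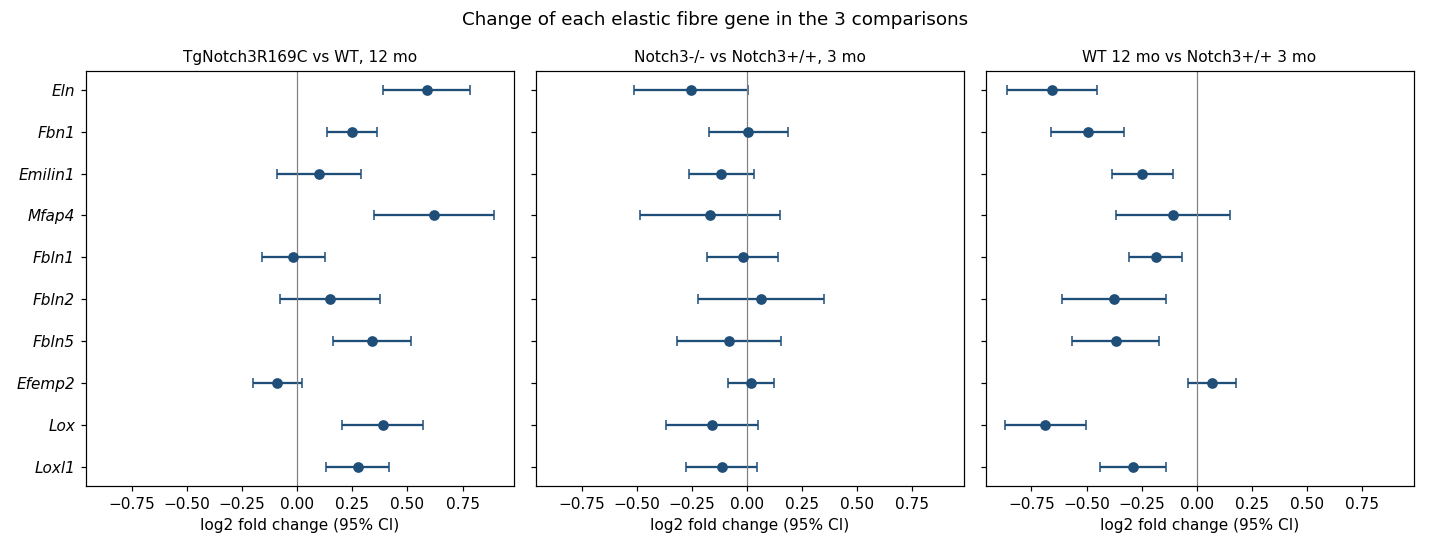
Log2 fold change with its 95% CI (x axis) for each of the 10 genes (y axis) in TgNotch3R169C against WT mice, Notch3-/- against Notch3+/+ mice, and the older (WT) against the younger (Notch3+/+) controls. Eln is at 0.59, −0.25 and −0.66 in the 3 panels, and the comparison of the control groups shares its mice with the other panels.

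In Notch3-/- mice no change of the 10 genes was resolved, and their count of calls lies near the share over all genes. None was called (edgeR, adjusted p 0.661 for Eln and 0.793 to 0.998 for the others), and 0.649% of all 17714 genes tested were. An unadjusted p below 0.05 was reached by 0 of the 10 and by 7.69% of all genes. For Eln the unadjusted p was 0.0544 by edgeR. DESeq2 and limma voom also called 0. The direction was lower for 7 of 10, with a median log2 fold change of −0.10 beside −0.0011 over all genes. For Eln, 7 of 8 Notch3-/- mice were below the control mean, 1 mouse at 1017 CPM was above every control, and the log2 fold change was −0.25 ± 0.12 (95% CI −0.51 to 0.01). The interval for Fbn1 was −0.17 to 0.18, for Lox −0.37 to 0.05 and for Mfap4 −0.48 to 0.15, so changes of these sizes were not resolved with 8 mice a group.

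Smooth muscle markers moved in this comparison. In Notch3-/- arteries 5 of the 8 were called lower (median log2 fold change −0.63), with summed levels of 1432 to 2205 CPM against 2081 to 3713 CPM in Notch3+/+ mice. Des was higher (0.28) and not called. With the mean of the 8 markers as a covariate, the log2 fold change of Eln was 0.10, of the opposite sign to the value without it. Mfap4, Lox, Loxl1 and Emilin1 kept a negative estimate with that covariate, and none was called. The paper describes NOTCH3 as a regulator of smooth muscle gene transcription, so the marker mean can follow genotype as well as cell share. What part either has in the Eln estimate was not tested. Oligodendrocyte markers were higher in 8 of 8 cases with 0 called (median 0.33), and their part was not tested either. Without the 1 Notch3-/- library that held choroid plexus RNA, 0 of the 10 were called and the log2 fold change of Eln was −0.25 (adjusted p = 0.653 by edgeR).

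The changes in the mutants can be set side by side. In a fit of all 4 groups, the change of Eln in TgNotch3R169C minus its change in Notch3-/- mice was 0.84 on the log2 scale (95% CI 0.52 to 1.16). The corresponding values were 0.79 for Mfap4 (0.37 to 1.21), 0.55 for Lox (0.28 to 0.82), 0.42 for Fbln5 (0.13 to 0.72), 0.39 for Loxl1 (0.18 to 0.61) and 0.25 for Fbn1 (0.03 to 0.46). These differences hold the contrast that chose the genes, so they are descriptions and nothing is read from their intervals.

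Between the control groups, most of the pathway was lower in the older mice. Relative to Notch3+/+ mice aged 3 months, 7 of the 10 genes fell in the 12-month WT mice and 0 rose (edgeR, adjusted p below 0.05). Of all 17643 genes tested, 7.92% were called in either direction and 4.05% were called lower. The median log2 fold change of the 10 was −0.33, beside 0.0026 over all genes. Age, mouse line and cohort differ together between these groups and cannot be told apart. The same mice are the controls in the comparisons above, so that a low Eln level in the 12-month controls enters both comparisons. The Eln values of these controls took part in the choice of the genes. Its call, counted among the 7, is therefore not independent of that choice, and its value is given without a p.

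Lox had the largest fall. It was at 93.2, 114 and 149 CPM in Notch3+/+ mice, all above the highest WT mouse aged 12 months at 83.1 CPM (log2 fold change −0.69 ± 0.09, adjusted p = 0.000356 by edgeR). For Eln the log2 fold change was −0.66 ± 0.10, which puts the older mice at 0.635 of the 3-month level, and 7 of 8 older mice were below every younger one. Fbn1 fell by 0.49 ± 0.08 (adjusted p = 0.00171 by edgeR), from 173, 201 and 257 CPM to 132, 149 and 167 CPM, without overlap. Groups were separate in this direction for 2 of the 10 genes, Lox and Fbn1, and for 0.845% of all genes.

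The smaller falls were those of Fbln2 (0.38 on the log2 scale, adjusted p = 0.0478), Fbln5 (0.37, 0.0235), Loxl1 (0.29, 0.0207) and Emilin1 (0.25, 0.029), each with overlapping groups and with all 8 older mice below the mean of the younger (adjusted p values by edgeR). Fbln2 was called in 3 of 12 alternative fits and with 3 of the 16 libraries left out in turn, Emilin1 in 7 and with 12, and both were near the threshold. Fbln1 had a log2 fold change of −0.19 and missed the threshold (adjusted p = 0.0519 by edgeR). Efemp2 (0.07, adjusted p = 0.45) and Mfap4 (−0.11, adjusted p = 0.643) were not called. Mfap4 thus differed from Eln in its profile over the groups: it was highest in TgNotch3R169C mice at 91.5 ± 22.0 CPM and lay at 56.8 to 63.9 CPM in the other 3, which did not differ beyond their SD.

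Markers of other cells moved between the control groups too. All 8 smooth muscle markers fell (median log2 fold change −0.88), with summed levels of 1145 to 1786 CPM against 2081 to 3713 CPM in the younger mice, groups that did not overlap. With their mean as a covariate 0 of the 10 elastic fibre genes, and 0 of all genes, were called. The log2 fold changes were then −0.77 for Lox and −0.58 for Fbn1, with adjusted p values of 0.26 and 0.314 by edgeR, and −0.33 for Eln. Since the marker sums of the groups did not overlap, this fit can hardly separate the covariate from group. Of the other lists, arterial endothelium (2 called, median −0.29) and endothelium markers (1 called, median −0.17) were lower in 8 of 8 cases. Of 8 fibroblast markers 3 were called lower (median −0.09), with sums of 4340 to 5700 CPM in the younger and 3843 to 4760 CPM in the older mice. Oligodendrocyte markers were higher in 8 of 8 cases with 3 called (median 0.64), with sums of 719 to 1843 and 1457 to 2111 CPM in the same order. The part of these cells in the falls was not tested. Without the 4 WT libraries that held choroid plexus RNA, Eln, Fbn1 and Lox were called and the other 7 were not (4 mice against 8). The log2 fold change was −0.61 for Fbn1 (adjusted p = 0.0138 by edgeR), −0.70 for Lox (adjusted p = 0.0144) and −0.60 for Eln. The same 3 genes were called with Ttr as a covariate, and for Eln these calls are not independent of the choice of the genes.

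**Figure D3:**
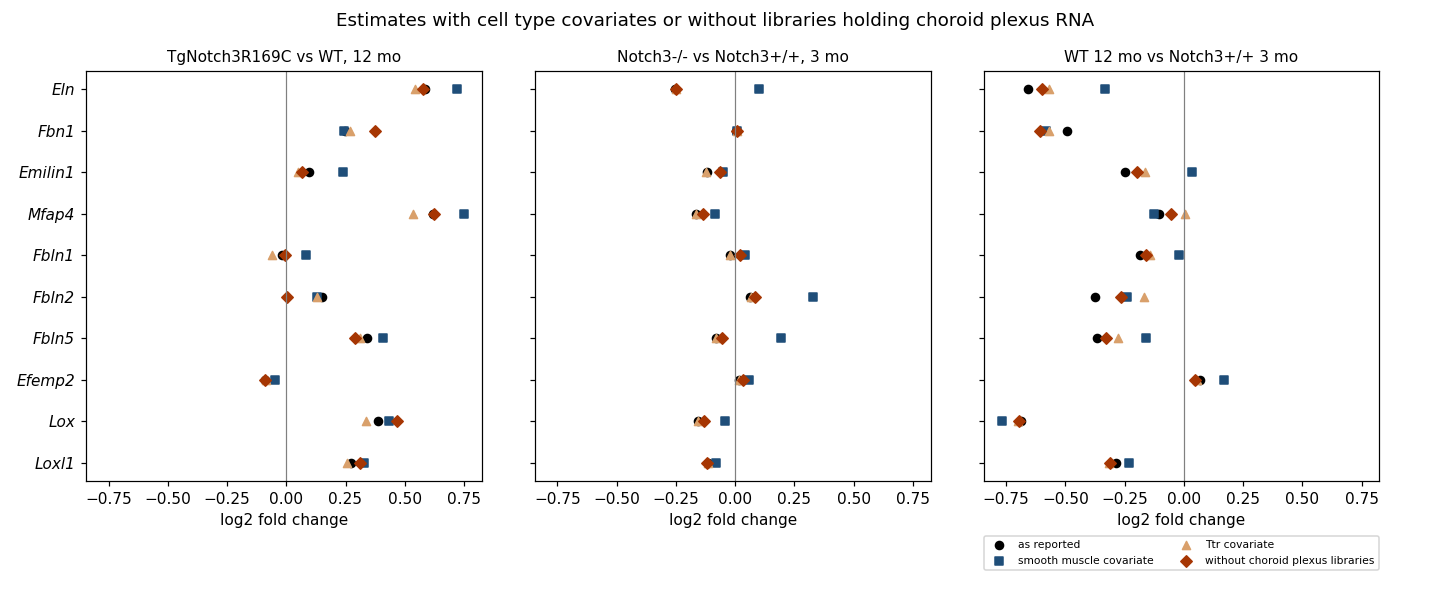
Log2 fold change (x axis) of the 10 genes (y axis) in the 3 comparisons as reported, with the smooth muscle marker mean or Ttr as a covariate, and without the libraries above 1000 CPM of choroid plexus markers. In the comparison of control groups Eln moves from −0.66 to −0.33 with the smooth muscle covariate, while Lox is at −0.69 and −0.77.

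Among the 10, the 3 genes with miR-29 matches were those with the largest falls between the control groups. Lox and Eln, with 3 matches each, and Fbn1, with 2, had log2 fold changes of −0.69, −0.66 and −0.49, while the 7 genes without a match lay between −0.38 and 0.07. Over the other tested genes, leaving out the 10 and 12 vessel wall collagens, 3.97% of genes without a match were called lower, 6.02% of those with 1 match and 9.6% of those with 2 or more. Those classes also differ in the length of the 3′ UTR, with medians of 1017, 2268 and 3712 bases. Among UTRs of 1000 to 3000 bases the shares were 5.01%, 5.59% and 5.47% (4969, 913 and 128 genes), the last being 7 called genes. Of the 12 collagens, 9 held a match. Col1a1, Col3a1, Col4a1, Col4a2, Col5a2 and Col6a2 held matches and were called lower. Col5a1 (4 matches), Col8a1 and Col15a1 (1 match each) were not called, with log2 fold changes of −0.05, 0.45 and 0.19. Col1a2, Col6a1 and Col18a1 were called lower without a match. In the other comparisons the matches did not divide the 10 in this way. In TgNotch3R169C mice Mfap4 (0.62), Fbln5 (0.34) and Loxl1 (0.27), without a match, were above Fbn1 (0.25), beside 0.59 for Eln and 0.39 for Lox. In Notch3-/- mice Fbn1 was at 0.005, Lox at −0.16 and Eln at −0.25, beside −0.17 for Mfap4. The search was made after the fold changes were known, and a part of miR-29 in the falls was not tested.

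**Figure D4:**
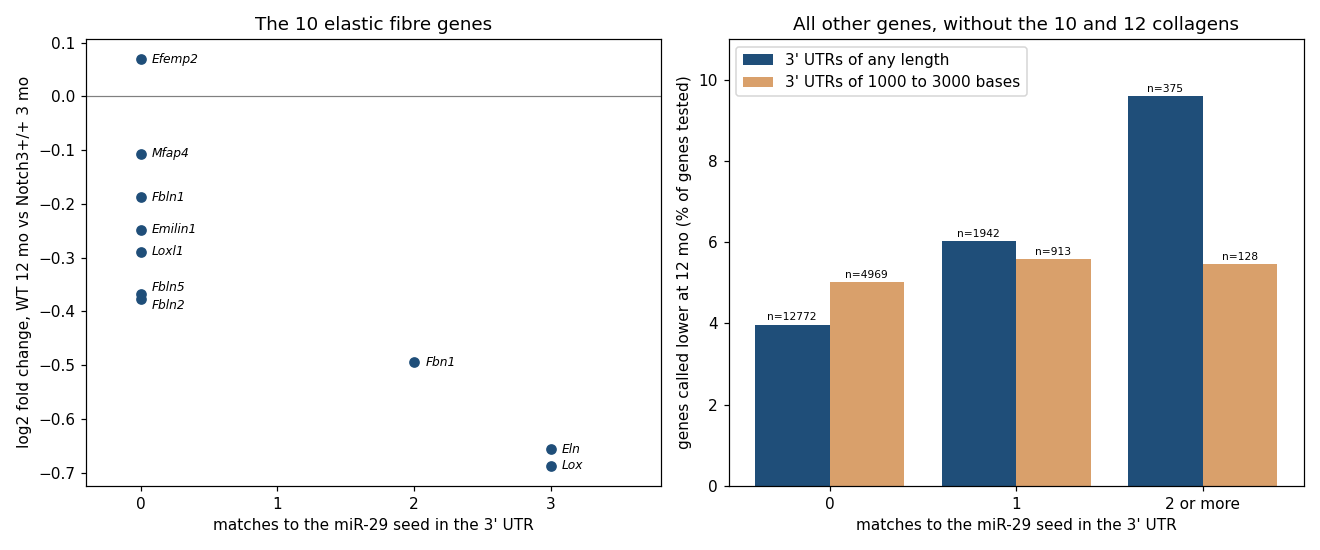
Left, log2 fold change between the control groups (y axis) against the number of miR-29 seed matches in the 3′ UTR (x axis) for the 10 genes. Right, percent of all other tested genes called lower at 12 months by number of matches, for UTRs of any length and for those of 1000 to 3000 bases, with the number of genes above each bar, where the shares of 3.97% to 9.6% become 5.01% to 5.59%.

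The neighbours of the 10 in the pathway were taken from lists of microfibril and assembly partners, elastin-degrading enzymes and their inhibitors, elastin receptors, and vessel wall collagens. In Notch3-/- mice 0 of the 25 partners tested, 0 of 17 turnover genes, 0 of 9 receptors and 0 of 12 collagens were called. Over all genes tested, the shares called were 0.649% in Notch3-/- and 0.113% in TgNotch3R169C mice. In TgNotch3R169C mice 1 of 25 partners was called and 0 of 16, 0 of 9 and 0 of 12 in the other lists. That gene was Adamtsl2, a secreted protein of the microfibril that binds fibrillin-1, at 37.9 ± 4.98 CPM in TgNotch3R169C and 17.0 ± 2.28 CPM in WT mice (log2 fold change 1.15 ± 0.09). In Notch3-/- mice its log2 fold change was 0.23 ± 0.13 and it was not called (adjusted p = 0.735 by edgeR). Without the choroid plexus libraries Adamtsl2 was again the 1 list gene called in TgNotch3R169C mice and 0 were called in Notch3-/- mice, and its log2 fold changes were 1.03 ± 0.12 in TgNotch3R169C and 0.25 ± 0.13 in Notch3-/- mice.

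Between the control groups, 5 of 25 partners fell and 1 rose. For this list and those below, the shares over all genes tested were 4.05% called lower and 7.92% in either direction. With the smooth muscle covariate 0 of all genes were called. Fbn2, the fibrillin of developing tissue, fell by 0.93 on the log2 scale (adjusted p = 0.000861 by edgeR), from 19.0 ± 3.16 to 9.93 ± 2.26 CPM. Loxl2, a lysyl oxidase that acts on basement membrane collagen, fell by 0.66, the matrix proteoglycan Vcan by 0.55, Ltbp1, which tethers latent TGF-β to microfibrils, by 0.48, and Adamtsl2 by 0.31. Ltbp2, a fibrillin-binding protein, rose by 0.66 on the log2 scale (adjusted p = 0.0362 by edgeR), from 15.6 ± 3.78 to 24.7 ± 7.65 CPM.

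Enzymes that degrade elastin and matrix changed in both directions. Mmp9, an elastin-degrading gelatinase, rose by 1.19 on the log2 scale from a low level of 3.70 ± 1.58 CPM (adjusted p = 0.017 by edgeR). Its relative Mmp2 fell by 0.53, Mmp14, which activates Mmp2, by 0.23, and the elastin-degrading cathepsin Ctsk by 0.53. Of 9 receptor genes 4 fell and 0 rose, all integrin chains: Itga8 by 0.70, Itgb3 by 0.38, Itga5 by 0.34 and Itgav by 0.19. Of 12 collagens 9 fell and 0 rose, with a median log2 fold change of −0.39, led by Col3a1 (0.76), Col4a1 (0.60), Col4a2 (0.58), Col5a2 (0.56) and Col6a2 (0.44). Without the 4 WT libraries that held choroid plexus RNA, fewer list genes were called lower: 2 partners (Fbn2 and Loxl2), 1 turnover gene (Mmp2), 2 receptors (Itgav and Itga5) and 6 collagens. Called higher were then Mmp9 and, in place of Ltbp2, Tnxb, a matrix glycoprotein.

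Variation among mice of the same group showed which genes moved together. Log2 CPM values were centred within each group, and Pearson's r was taken over the 32 libraries, which share dissection, depth and cell make-up, so the values are descriptions. Among the 10, the closest pairs were Efemp2 with Loxl1 (r = 0.74), Fbln1 with Emilin1 (0.67) and Fbln5 with Mfap4 (0.66). Eln was nearest to Lox (0.61) and next to Fbln2 (0.54), and its r with Emilin1 was 0.00. Within single groups, r of Eln with Lox was 0.41 to 0.72. With Emilin1 it was 0.18 in Notch3+/+, −0.44 in Notch3-/-, 0.08 in WT and 0.40 in TgNotch3R169C mice. In the pooled values the 10 genes did not form 1 block: Lox had r = 0.60 with Fbn1 but −0.06 with Emilin1, and Fbln2 had r = −0.08 with Emilin1. Within groups, r of Fbln2 with Emilin1 ran from −0.52 in TgNotch3R169C to 0.56 in WT mice. A pooled r near 0 can thus join opposite values.

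**Figure D5:**
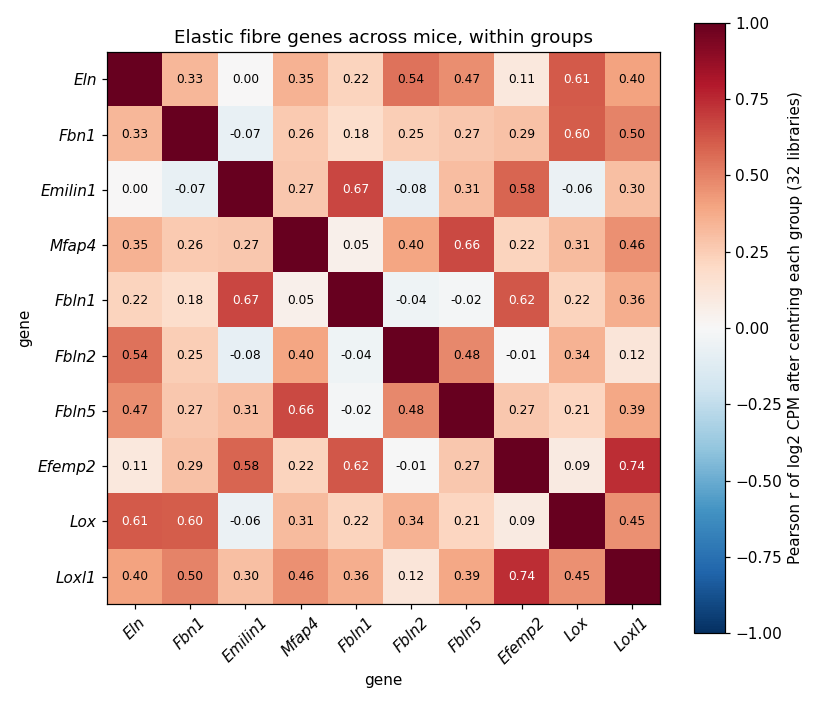
Pearson's r between the 10 genes (both axes), from log2 CPM centred within each of the 4 groups over 32 libraries, with red for positive and blue for negative values. The highest value off the diagonal is 0.74 for Efemp2 with Loxl1, and the lowest is −0.08 for Fbln2 with Emilin1.

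Marker lists showed different companions for the members. Fbln5 followed the arterial endothelium list (Gja5, Gja4, Bmx, Sox17, Efnb2, Dll4, Hey1 and Sema3g) with r = 0.86. Mfap4 had r = 0.74 with the fibroblast list and 0.64 with the arterial endothelium list. Eln had r = 0.62 with the endothelium list, 0.60 with the smooth muscle list and 0.55 with the arterial endothelium list. Its r was 0.42 to 0.45 with the pericyte, fibroblast, macrophage and red cell lists, and −0.46 with the neuron list. Lox was closest to the fibroblast list (0.55). Efemp2 and Loxl1, the closest pair, had their strongest values with neural lists, and these were negative. They were −0.72 and −0.55 with the neuron list, and −0.56 and −0.66 with the astrocyte list. A part of neural tissue in that pair was not tested. Fbln5 and Mfap4 were also near the top of each other's ranking, each within the 100 most similar genes of the other.

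Over 18554 genes, those most like Eln were Mfng (r = 0.79), a glycosyltransferase that modifies Notch receptors, Nos3 (0.79), the endothelial nitric oxide synthase, Synpo (0.79), an actin-binding protein, Epas1 (0.78), a hypoxia-inducible transcription factor, and Col18a1 (0.78), a basement membrane collagen. They were followed by Cdk6 (0.77), Card10 (0.75), Rbms1 (0.74), Robo4 (0.74), a receptor of endothelial cells, and Dram1 (0.74). The 99th percentile of r with Eln was 0.61. None of the other 9 elastic fibre genes was among the 100 most similar to Eln; Lox came at rank 172 and Fbln2 at 359. Lowest were Slc26a8 (−0.71), Kcnn1 (−0.70) and Tcaf1 (−0.69). The ranking was not firm, since Spearman's rho gave 5 of the same 10 genes, and within single groups of 8 mice 0 or 1 of them was among the first 10.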

How the data were processed

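Per Ensembl gene and library, the authors deposited whole-number counts of reads that were not normalized, for 32 libraries. Libraries were made from 150 ng of total RNA with a stranded poly(A) kit and 13 PCR cycles. The submitters' processing notes name bcl2fastq 2.20.0.422, cutadapt 1.10, Bowtie2 2.2.8, STAR 2.5.3a, HTSeq 0.6.1p1 and the build mm39, without roles; the annotation release and strand setting are not given in the sources used here. The study compared pairs of groups with DESeq2, which is an alternative here.

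The analysis used edgeR 4.0.16 in R 4.3.3, with filterByExpr, TMM, and the quasi-likelihood test on the 2 groups compared, with Benjamini-Hochberg adjustment over all genes tested and calls at adjusted p below 0.05. Intervals are 95% CIs of that fit. Symbols were found for 52081 of 55357 identifiers. TPM used the longest basic GENCODE vM21 transcript. That annotation and the miRNA sequences (RefSeq) are of build GRCm38, so no coordinates are printed. UTR searches used only transcript sequence.

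Groups were read from the labels. Replicates are separate libraries. The labels do not say whether same-numbered replicates are paired, and they were fitted as unpaired. The correlation of their deviations was over 0.1 in 3 or 4 of 8 pairs in each comparison, which does not settle it. No libraries were duplicates.

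Members, gene lists and tests were chosen with earlier results of these data known. Genes named are Notch3, the 10, list genes called (the 5 largest per list and comparison), and the 10 most and 3 least correlated with Eln (log2 CPM, prior count 2). The 12 vessel wall collagens are also named for their miR-29 matches. Alternatives were RLE and upper-quartile scaling, no filter or at least 10 counts in every library, DESeq2 1.42.0, limma voom (3.58.1), all 4 groups in 1 fit, replicate number as a block, covariates (smooth muscle and fibroblast lists, Ttr), each library left out, and, added after the data were seen, no libraries above 1000 CPM of choroid plexus markers.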

Additional observations from a re-analysis of the deposited data

Results flagged for a closer look

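Of 40 sets of 8 values (10 genes in 4 groups), 3 had 1 mouse far from the rest, by the gap to its neighbour as a share of the range; chance gives about 2. Fbln1 in TgNotch3R169C replicate 5 was at 395 CPM with the next mouse at 496 CPM, a gap of 0.627 of the range. That library also held choroid plexus RNA. Mfap4 in TgNotch3R169C replicate 7 was at 140 CPM with the next at 97.1 CPM, a gap of 0.588. Emilin1 in Notch3-/- replicate 8 was at 112 CPM with the next at 141 CPM, a gap of 0.528, and this was the Notch3-/- library that held choroid plexus RNA.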

How the results depend on the processing

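The number of the 10 genes called in Notch3-/- mice was 0 in every alternative. In TgNotch3R169C mice it was 1 with most alternatives, 6 with DESeq2, 2 with the fibroblast covariate, and 0 with Ttr as a covariate or without the libraries above 1000 CPM of choroid plexus markers. Leaving out 1 library at a time gave 1 to 2, and 2 (Eln and Mfap4) came without TgNotch3R169C replicate 5. Between the control groups it was 7, and it was 5 to 8 with other alternatives and with single libraries left out, but 0 with the smooth muscle covariate and 3 with Ttr as a covariate or without the choroid plexus libraries. The last leaves fewer mice. Summed smooth muscle levels of the control groups did not overlap (1145 to 1786 against 2081 to 3713 CPM), so that fit can hardly separate the covariate from group. Otherwise the cause was not tested. Over all genes, calls in TgNotch3R169C mice were 20, or 74 with DESeq2, 6 with the replicate block, 7 with Ttr and 2 without the choroid plexus libraries. In Notch3-/- mice they were 115, or 280 with DESeq2, 174 with all 4 groups in 1 fit and 23 with the smooth muscle covariate. Between the control groups they were 1398, or 2365 with DESeq2, 715 with the replicate block, 246 with Ttr, 402 without the choroid plexus libraries and 0 with the smooth muscle covariate.

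In the fits with a replicate block the counts of the 10 were 1, 0 and 5 (without Fbln2 and Emilin1), and 1, 3 and 2 of 8 samples correlated best with their own number. Between the control groups Fbn1 and Lox were called in 11 of 12 alternatives and with each of the 16 libraries left out, Fbln2 in 3 and with 3. Eln had the same counts as Fbn1 and Lox, but its control values took part in the choice of the genes, so its counts support nothing.

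Some estimates changed sign, also some that were not near 0 (Eln at −0.25 in Notch3-/- mice, Emilin1 at −0.25 between the control groups). In Notch3-/- mice these were Eln (0.10), Fbln1 (0.042) and Fbln5 (0.19) with the smooth muscle covariate, Fbn1 (−0.031) and Fbln2 (−0.0080) with the fibroblast covariate, and Fbln1 (0.022) without the choroid plexus library. With single libraries left out, Fbn1 ranged from −0.030 to 0.057, Fbln1 from −0.049 to 0.022 and Efemp2 from −0.0042 to 0.050. Between the control groups Emilin1 was 0.036 with the smooth muscle covariate and Mfap4 0.0047 with Ttr. Scaling moved the median of all genes by under 0.1 on the log2 scale. Intervals and SDs cover 8 mice a group, and changes under their width were not resolved.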
